A study of Mus musculus with 8 samples.

Results

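Gene expression in the spinal cord of MPTP-treated mice was compared between needling at leg and foot acupoints and needling at the hips. The comparison used 4 of the 8 arrays of the study: the 2 arrays titled as acupoint acupuncture and the 2 arrays titled as non-acupoint acupuncture, here called acupoint and non-acupoint replicates 1 and 2. All genes with a probe set of exactly 1 symbol were considered, each through its probe set with the highest mean over the 8 arrays. There were 19938 such genes. Of these, 16026 passed a filter on low signal and were tested, and 3912 did not.

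RNA was measured on whole-transcript Affymetrix arrays in adult male C57BL/6 mice, 6 weeks old at the start, from tissue that the labels call cervical spinal cord. MPTP, a toxin of dopaminergic neurons given to mimic Parkinson's disease, was injected into both needled groups at 20 mg/kg every 24 h for 4 weeks. In the acupoint group, needles were inserted on both sides to 3 mm at GB34, a point below the knee, and to 1 mm at LR3, a point on the foot. In the non-acupoint group they were inserted to 3 mm at both hips. Both groups were needled by hand every 48 h, 14 times in all, starting 2 h after the first MPTP injection, and the needles were turned for 15 s. Both groups therefore share MPTP, injection, handling and needle insertion, and differ in site and in the number of points. The 2 MPTP arrays without needling and the 2 saline control arrays serve below as reference levels, and they entered the estimate of the spread. The label on each array numbers a mouse, and pooling of animals is neither stated nor denied there. The p-values and standard errors (SE) therefore cover the spread between samples alone, and that spread may be technical.

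Needling excites sensory fibres in muscle and skin whose terminals lie in the dorsal horn of the spinal cord, where local neurons use peptides such as somatostatin, neuropeptide Y and enkephalin beside GABA, glycine and glutamate. Sensory input from the leg, foot and hip enters the cord at lumbar levels and reaches the cervical cord through ascending and propriospinal neurons. Position along the cord is marked by the Hox genes, with low-numbered members expressed from the hindbrain and neck down and high-numbered members in lumbar and sacral segments. Glucocorticoids, released when an animal is handled or stressed, enter the cord from the blood and induce genes such as Fkbp5 and Tsc22d3 in glia and vessels.

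All values below are the authors' RMA values, on a log2 scale, in which a difference of 1 is a 2-fold difference. Differences are acupoint minus non-acupoint group means with the SE of a limma model. In whole tissue, fewer cells of a type and less RNA per cell cannot be told apart. The general neuronal markers had means of 10.0 to 10.2 on all 8 arrays. Among the needled arrays, acupoint replicate 1 and non-acupoint replicate 2 stood apart in genes of other tissues, and non-acupoint replicate 1 stood apart in Hox genes. The SD of the differences over all genes was 0.314 between the 2 acupoint arrays and 0.205 between the 2 non-acupoint arrays. Between the groups the smallest such SD was 0.161, for acupoint replicate 2 and non-acupoint replicate 1, so these arrays of different groups lay closer than either pair of the same group. At least 2-fold gaps were seen for 115 genes between the acupoint arrays, 38 between the non-acupoint arrays and 11 between acupoint replicate 2 and non-acupoint replicate 1. For acupoint replicate 1, the SD was 0.280 and 0.240 against MPTP replicates 1 and 2. Against control replicates 1 and 2 it was 0.264 and 0.339. Acupoint replicate 1 thus lay closer to both MPTP arrays and to control replicate 1 than to acupoint replicate 2.

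No gene passed the limma test at a Benjamini-Hochberg adjusted p of 0.05, which is 0% of the genes tested, and the smallest adjusted p was 0.411, for Sgk3. At an unadjusted p of 0.05 there were 604 genes (3.77%), of which 283 were higher after acupoint needling (1.77%) and 321 were lower (2.00%). The median gene differed by -0.0008, and the 5th and 95th percentiles of the differences were -0.25 and 0.26. Both acupoint arrays lay above both non-acupoint arrays for 2443 genes (15.2%) and below them for 2096 genes (13.1%), together 28.3%. Differences of at least 2-fold were seen for 9 genes higher and 17 lower, and the arrays did not overlap for 4 and 6 of these. An exact permutation test of 2 arrays against 2 cannot go below a two-sided p of 0.333. The count of called genes rested on single arrays: it was 622 without acupoint replicate 2 (82 higher and 540 lower), 12 without non-acupoint replicate 1 and 3 without non-acupoint replicate 2. In each of these fits 1 array stands for a group and is assumed to vary like the other groups.

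**Figure D1:**
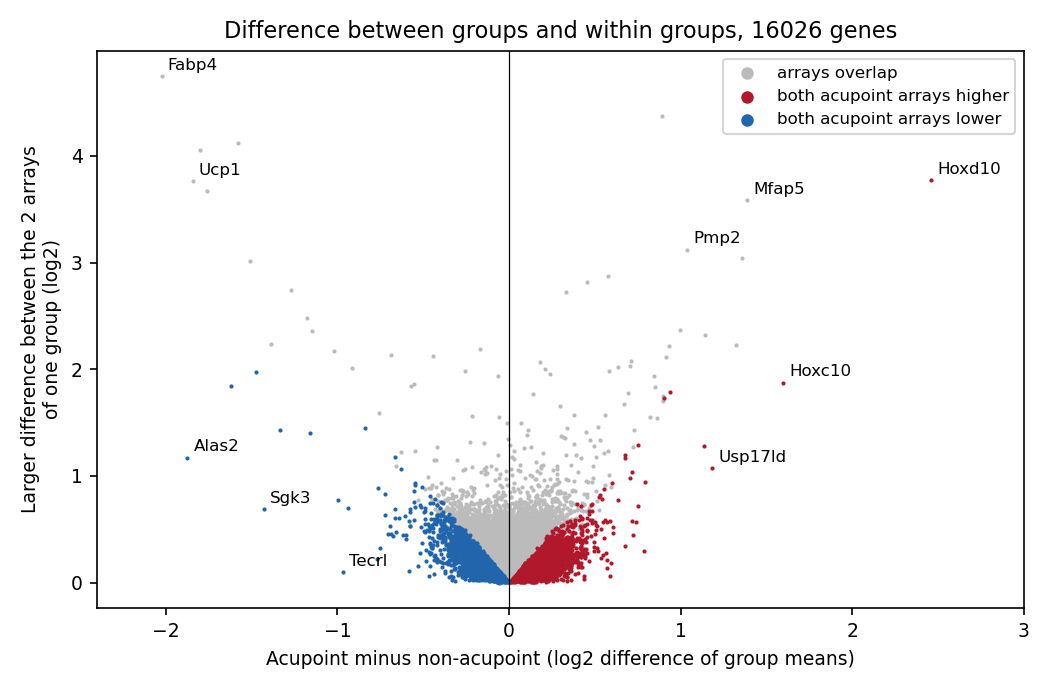
Each of the 16026 points is a gene, with the acupoint minus non-acupoint log2 difference on the horizontal axis and the larger of the 2 within-group differences on the vertical axis. Red and blue points are genes whose arrays do not overlap. Sgk3 lies at -1.43 with a within-group difference of 0.69, less than the difference between groups, while Fabp4 at -2.02 and Mfap5 at 1.39 differ more within a group than between groups.

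Sgk3 had the smallest p of all genes. It encodes a kinase of the serum- and glucocorticoid-regulated family that acts on endosomes downstream of phosphoinositide 3-kinase. Its signal was 7.37 and 8.06 on acupoint replicates 1 and 2, and 9.05 and 9.24 on the non-acupoint replicates. For comparison it was 8.14 and 8.21 with MPTP alone and 7.54 and 7.40 in controls. Both non-acupoint arrays were thus the highest of the 8, and both acupoint arrays lay below the MPTP arrays. The difference was -1.43 (SE 0.19), 2.69-fold lower after acupoint needling, with a limma adjusted p of 0.411. It was -1.08 without acupoint replicate 1 and -1.78 without acupoint replicate 2, and the adjusted p of the latter fit was 0.0019, the lowest of 25 alternatives that reached from there to 0.998. The other family members differed less. Sgk1, the hormone-induced member, was at 8.06 and 8.22 after acupoint needling and 8.09 and 8.27 after hip needling, a difference of -0.04 (SE 0.10). Sgk2 differed by -0.11 (SE 0.17). Both sets of arrays overlapped.

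Alas2, the erythroid enzyme of the first step of haem synthesis, was at 5.59 and 6.64 after acupoint needling against 8.57 and 7.40 after hip needling. With MPTP alone it was at 7.87 and 7.81, and in controls at 5.24 and 5.54. The acupoint arrays thus lay between the controls and the MPTP arrays, and the non-acupoint arrays lay on either side of the MPTP arrays. The difference was -1.87 (SE 0.38, limma adjusted p = 0.936), 3.67-fold. Other genes of the blood list differed in both directions. The platelet chemokine gene Ppbp was at 5.08 and 4.91 against 7.46 and 5.48, a difference of -1.47 (SE 0.49) that was -0.48 without non-acupoint replicate 1. Fech, which inserts iron into haem in all cells, differed by -0.24 (SE 0.14) and the red-cell enzyme gene Bpgm by -0.15 (SE 0.14). The arrays of Bpgm overlapped. So did those of Pf4 (-0.25, SE 0.27), Slc4a1 (-0.11, SE 0.16), Treml1 (0.10, SE 0.17) and Itga2b (0.08, SE 0.17). Of 8 erythroid and platelet genes tested 3 had both acupoint arrays lower and 0 had both higher, against 13.1% and 15.2% of all genes. Their mean was 6.32 and 6.29 after acupoint needling, 7.06 and 6.53 after hip needling, 6.67 on each MPTP array, and 6.10 and 6.12 on the controls. Blood genes were thus highest on non-acupoint replicate 1, and the part of blood in the differences of other genes was not tested.

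Dio2, the deiodinase that turns thyroxine into active triiodothyronine in astrocytes and tanycytes, was at 6.94 and 7.57 on the acupoint arrays. The non-acupoint arrays were at 7.90 and 8.06, above 7.78 on both MPTP arrays. The difference was -0.72 (SE 0.19), and it was -0.41 without acupoint replicate 1 and -1.04 without acupoint replicate 2. Tecrl, an enoyl-CoA reductase-like gene of the endoplasmic reticulum, was at 4.12 and 4.05 against 5.005 and 5.10, while MPTP and control arrays ranged from 3.74 to 4.26. The non-acupoint arrays were thus the 2 that stood out, at a signal low for the array, and the difference was -0.97 (SE 0.18). The uncoupling protein gene Ucp3 was at 6.27 and 6.72 against 7.07 and 7.29, with the MPTP arrays at 6.69 and 6.66 (difference -0.69, SE 0.15). The chemokine gene Ccl3, made by activated microglia and macrophages, was at 4.86 and 5.32 against 5.68 and 6.38. Its difference was -0.94 (SE 0.23), and -0.59 without non-acupoint replicate 2. In each of these 4 genes the arrays did not overlap, and limma gave an adjusted p of 0.936.

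Other genes named by the same rule were the lipid-droplet gene Cidea at -1.16 (SE 0.35) and the lipid-droplet coat gene Plin4 at -0.62 (SE 0.17). The cytoskeletal adaptor Pdlim1 was at -0.72 (SE 0.23), and a further probe set of it gave -0.69. Ube2l6, the enzyme that conjugates the interferon-induced modifier ISG15, was at -0.66 (SE 0.18). Of these, Cidea rested on non-acupoint replicate 2, without which it was at -0.46. Without acupoint replicate 1 Pdlim1 was at -0.31, and without non-acupoint replicate 1 Ube2l6 was at -0.36. Plin4 was at -0.39 without non-acupoint replicate 2. Prg4, the joint lubricant lubricin, also had a wide gap between the groups, with 5.83 and 4.40 against 6.48 and 6.41. Its MPTP arrays, however, were at 3.53 and 6.75, so replicates of another group spanned more than the difference of -1.33 (SE 0.82).

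Among genes higher after acupoint needling, the Hox genes Hoxc10 and Hoxd9 are described with their family below. Usp17ld, a deubiquitinase gene, was at 7.46 and 6.38 after acupoint needling against 5.77 and 5.70 after hip needling. Without needling it was at 6.06 and 6.17 after MPTP and at 7.75 and 7.51 in controls. Acupoint replicate 1 was near the controls and the other acupoint array near the MPTP arrays. The difference of 1.18 (SE 0.28) became 0.65 without acupoint replicate 1. The gene belongs to a family of near-identical copies that the probes may not tell apart. Set, a histone chaperone and inhibitor of protein phosphatase 2A, was at 4.76 and 4.70 against 4.16 and 4.13, a difference of 0.59 (SE 0.15) at a level close to the filter of 4.30. A further, dimmer probe set of Set gave 0.17.

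Ints2, a subunit of the Integrator complex that processes small nuclear RNA and ends paused transcription, was at 6.62 and 6.76 against 6.16 and 6.07. The MPTP arrays were at 6.54 and 6.61, so the non-acupoint arrays were the ones below the rest. The difference was 0.57 (SE 0.11) with a limma adjusted p of 0.936. Dusp4, a phosphatase that switches off MAP kinases and is induced by them, was at 6.15 and 6.10 against 5.70 and 5.43, with MPTP arrays between them at 5.93 and 5.88 (difference 0.56, SE 0.16). Cacng5, an auxiliary subunit of AMPA receptors, was at 7.29 and 7.14 against 6.78 on both non-acupoint arrays (difference 0.43, SE 0.10). The calcium sensor Hpcal4 differed by 0.45 (SE 0.14), and by 0.26 without non-acupoint replicate 2. The chondroitin sulfotransferase gene Chst7 was at 0.53 (SE 0.15), the sorting nexin gene Snx31 at 0.52 (SE 0.15), the nuclear matrix gene Banp at 0.49 (SE 0.13) and Fam216b at 0.57 (SE 0.14). None of these genes overlapped between the groups, and each had an adjusted p of 0.936. In all, 30 genes higher and 59 lower met that rule at an unadjusted p under 0.01 (0.555% of genes tested), of which 6 and 3 were predicted genes or small RNAs that are counted and not named.

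**Figure D2:**
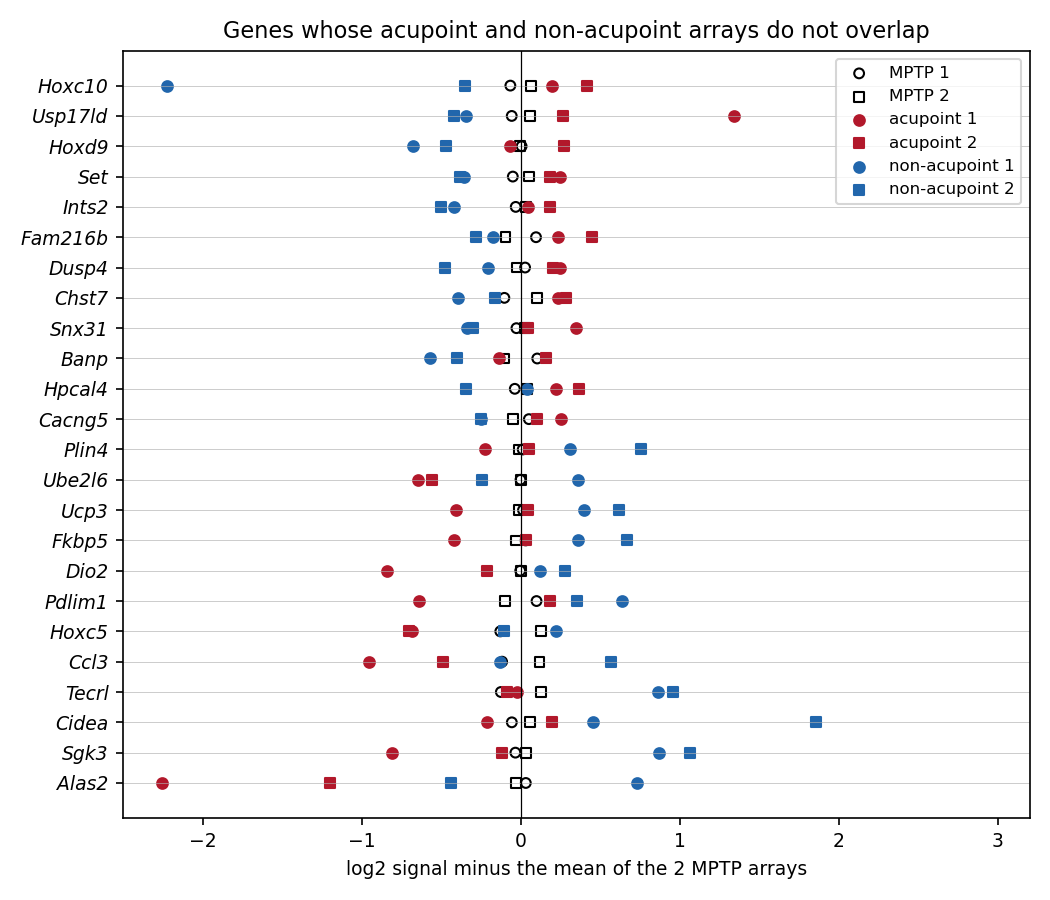
The horizontal axis is the log2 signal of each array minus the mean of the 2 MPTP arrays, for the 24 genes with the largest differences among those without overlap at an unadjusted p under 0.01. Red marks are acupoint arrays, blue marks non-acupoint arrays and open marks MPTP arrays, with circles for replicate 1 and squares for replicate 2. For Sgk3 and Tecrl the blue marks stand to the right of all others, and for Hoxc10 non-acupoint replicate 1 alone stands far to the left.

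Promoter sequences were read for the genes without overlap at an unadjusted p under 0.01, from RefSeq on assembly GRCm38.p6, from 250 bases before to 50 bases after the annotated start. Windows were found for 66 of these genes, and for 12644 of all genes tested, some of which had more than 1 window. The counts below are of genes among the 66 but of windows among all, so the 2 are not in the same unit. The palindromic cyclic AMP response element TGACGTCA occurred in 3 of the 66, Sst, Dio2 and Stxbp3, and in 429 of all 15961 windows (2.69%). The GATA motif AGATAA, searched on both strands, occurred in 7 of the 66, Alas2 among them, and in 7.09% of all windows. The 3 windows below are shown because Sst and Dio2 share an element while Sst was higher after acupoint needling and Dio2 lower, and because Alas2 had the largest negative difference among genes without overlap. Sst is at chr16:23890795-23891094 on the minus strand, with the element from -48 to -41. Dio2 is at chr12:90738989-90739288 on the minus strand, with the element from -95 to -88. Alas2 is at chrX:150547167-150547466 on the plus strand, with the GATA motif, read here as TTATCT, from -86 to -81. Positions count from the annotated start, sequences run 5′ to 3′ along the gene, and capitals mark the matched letters.
Sst: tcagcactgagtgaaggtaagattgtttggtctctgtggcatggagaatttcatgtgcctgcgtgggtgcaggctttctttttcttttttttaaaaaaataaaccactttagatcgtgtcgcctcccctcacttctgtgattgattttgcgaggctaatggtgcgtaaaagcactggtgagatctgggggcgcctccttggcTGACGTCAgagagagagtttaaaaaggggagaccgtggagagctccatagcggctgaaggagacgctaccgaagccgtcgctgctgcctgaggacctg
Dio2: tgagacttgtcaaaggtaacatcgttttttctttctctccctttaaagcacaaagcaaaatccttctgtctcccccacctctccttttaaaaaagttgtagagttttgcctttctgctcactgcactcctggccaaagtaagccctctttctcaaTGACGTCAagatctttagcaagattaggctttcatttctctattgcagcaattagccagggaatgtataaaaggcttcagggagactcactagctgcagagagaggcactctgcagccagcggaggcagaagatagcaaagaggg
Alas2: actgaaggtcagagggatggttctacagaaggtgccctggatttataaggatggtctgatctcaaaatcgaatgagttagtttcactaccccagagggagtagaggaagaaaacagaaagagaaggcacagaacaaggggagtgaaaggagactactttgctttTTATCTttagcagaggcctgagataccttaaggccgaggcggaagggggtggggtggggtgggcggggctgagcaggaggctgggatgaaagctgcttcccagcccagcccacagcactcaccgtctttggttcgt
A match is a description of these letters and does not show that a factor binds there.

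The Hox genes held the largest difference among genes without overlap. Hoxd10 was at 9.07 and 8.79 after acupoint needling and at 4.58 and 8.35 after hip needling. Hoxd10 was at 8.71 and 8.79 on the MPTP arrays and at 8.77 and 7.64 on the controls. Non-acupoint replicate 1 was thus far below the other 7 arrays, and the other non-acupoint array lay within the range of the rest. The difference was 2.46 (SE 0.92), 5.50-fold, and it was 0.57 without non-acupoint replicate 1. Hoxc10 was at 7.61 and 7.82 against 5.18 and 7.06, with 7.24 to 7.49 on the MPTP and control arrays. Its difference of 1.60 (SE 0.45) became 0.66 without non-acupoint replicate 1. Hoxd11 was at 7.24 and 6.93 against 5.31 and 6.59 (difference 1.14, SE 0.40), and Hoxa10 at 6.97 and 6.88 against 5.66 and 6.61 (0.79, SE 0.25, and 0.32 without non-acupoint replicate 1). Hoxd9 was lower on both non-acupoint arrays, at 5.64 and 5.84 against 6.24 and 6.58 (0.68, SE 0.15). Hoxa9 was at 8.13 and 8.60 against 7.63 and 7.88 (0.61, SE 0.22).

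The sign of the difference varied with the place of the gene in its cluster. Paralog groups are numbered along each cluster in the order in which the genes are expressed from head to tail. Of 16 genes tested in paralog groups 9 to 13, 13 were positive, and 10 had both acupoint arrays higher against 1 with both lower (15.2% and 13.1% of all genes), with a median of 0.57. Of 10 genes in groups 5 to 8, 9 were negative, and 6 had both acupoint arrays lower against 1 with both higher, with a median of -0.18. Of 11 genes in groups 1 to 4, 6 were positive and 5 negative (median 0.05). These ranges of paralog numbers were chosen after the values were seen, and none of the 37 genes passed the adjusted threshold. The mean of groups 9 to 13 was 5.36 on non-acupoint replicate 1 and 6.01 on replicate 2, against 6.31 and 6.27 on the acupoint arrays, 6.25 and 6.24 on the MPTP arrays and 6.38 and 5.93 on the controls. Without non-acupoint replicate 1 their median was 0.37, with 14 of 16 positive. For groups 5 to 8 it was then -0.13, with 7 of 10 negative.

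Among the lower Hox genes, Hoxc8 was at 9.30 and 9.33 on the acupoint arrays against 10.2 and 9.97 (difference -0.77, SE 0.26). Hoxc5 was at 6.33 and 6.31 against 7.23 and 6.91 (-0.75, SE 0.18). The controls were at 8.51 and 9.57 for Hoxc8 and at 6.52 and 7.04 for Hoxc5. For Hoxc8 the control replicates thus lay further apart than the 2 needled groups, with 1 control below both acupoint arrays. Hoxa5 differed by -0.34 (SE 0.11) and Hoxc6 by -0.31 (SE 0.13). In these 4 genes the arrays did not overlap. The labels give the tissue as cervical cord without naming segments, and Hoxa10, Hoxc10 and Hoxd10, known from lumbar segments, were at 6.61 or above on each of 7 arrays and at 4.58 to 5.66 on non-acupoint replicate 1. For Hoxd10 and Hoxc10 the 2 non-acupoint arrays differed by 3.77 and 1.87, more than the groups did. The part of this Hox difference in the values of other genes was not tested.

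**Figure D3:**
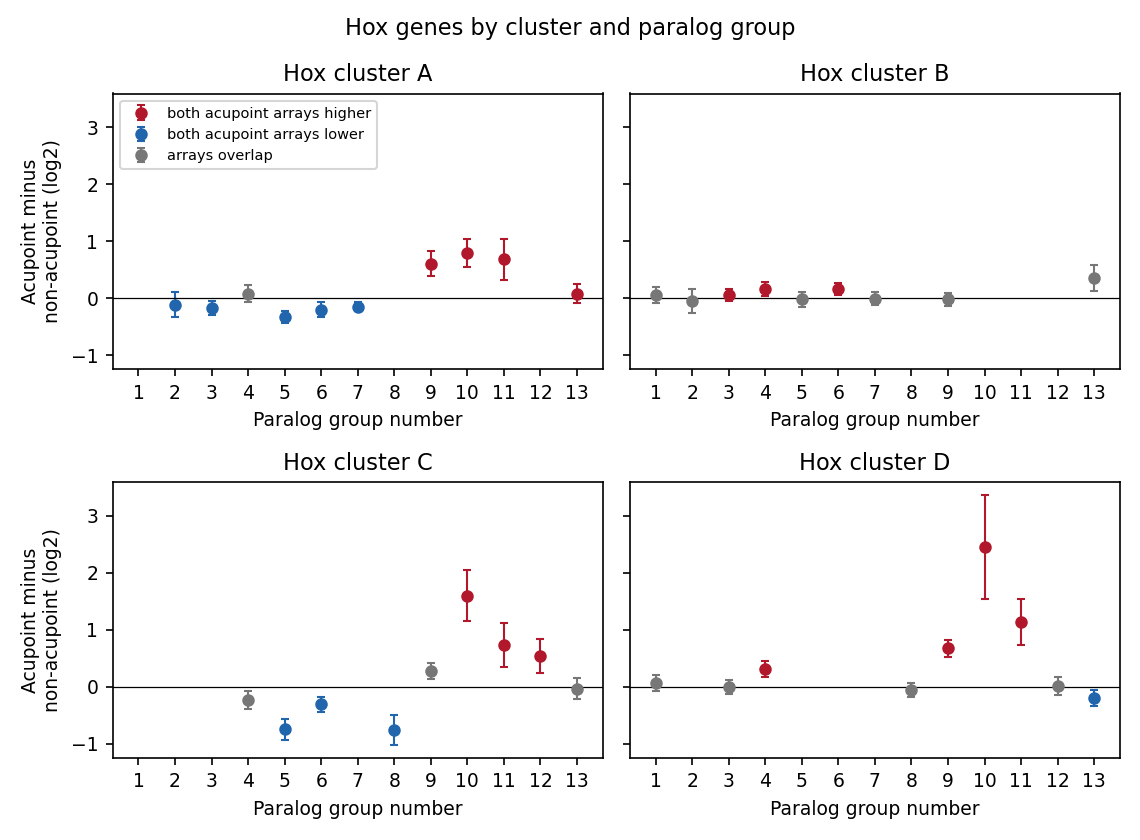
Each point is a Hox gene, by cluster (panel) and paralog group number (horizontal axis), with the acupoint minus non-acupoint log2 difference and its SE on the vertical axis. Red and blue points have no overlap between arrays. Points for groups 9 to 11 of clusters A, C and D lie above 0, up to 2.46 for Hoxd10, and those for groups 5 to 8 of clusters A and C lie below 0.

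Genes of adipose tissue separated 1 non-acupoint array from all others. Fabp4, the fatty acid carrier of adipocytes, was at 9.05 on non-acupoint replicate 2 and at 4.25 to 4.98 on the other 7 arrays. Ucp1, which makes heat in brown fat, was at 7.88 on that array and at 3.77 to 4.35 on the others. Non-acupoint replicate 1 was at 4.30 for Fabp4 and 4.12 for Ucp1, within the range of the rest, so the arrays overlapped. The differences between group means were -2.02 (SE 1.13) for Fabp4, -1.84 (SE 0.89) for Ucp1, -1.80 (SE 1.03) for the fatty acid receptor Cd36 and -1.58 (SE 1.01) for the carbonic anhydrase Car3. Cyp2e1 (-1.76), Pck1 (-1.51), the lipoprotein lipase Lpl (-1.39) and the carboxylesterase Ces1d (-1.27) were high on the same array. Without it Fabp4 was at 0.35, Ucp1 at 0.04 and Cd36 at 0.23. Of 15 adipose and lipid droplet genes tested, 7 had both acupoint arrays lower and 0 had both higher, against 13.1% and 15.2% of all genes. The list mean was 8.05 on non-acupoint replicate 2 and 6.18 to 6.45 on the other 7 arrays, and the list median of -0.58 became -0.10 without that array. Pnpla2, the lipase that starts triglyceride breakdown, was at 7.31 on both acupoint arrays against 7.62 and 8.15 (-0.58, SE 0.15), and Dgat2 was at -0.50 (SE 0.16). Without non-acupoint replicate 2 they were at -0.31 and -0.26.

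Genes of nerve sheath, connective tissue and muscle separated acupoint replicate 1. Pmp2, a lipid-binding protein of peripheral myelin, was at 7.07 on that array and 3.95 on the other acupoint array, against 4.00 and 4.94 on the non-acupoint arrays. The controls were at 8.06 and 3.73 and the MPTP arrays at 3.81 and 6.40, so replicates of these groups also lay far apart. The microfibril gene Mfap5 was at 8.52 and 4.93 against 5.17 and 5.50 (difference 1.39, SE 1.26). Cldn19, a tight junction gene of Schwann cells, was at 8.39 and 5.34 against 5.31 and 5.70 (1.36, SE 0.97). Sbspon (1.32), Fam178b (1.14), the fast-muscle calcium pump Atp2a1 (1.00), the collagen Col1a1 (0.93) and Arhgap19 (0.92) had the same overlapping arrays. A further probe set of Fam178b gave -0.03. All of these genes except Sbspon were below 0 without acupoint replicate 1.

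The 17 Schwann cell and peripheral myelin genes had a mean of 7.54 on acupoint replicate 1 and 6.28 on replicate 2, against 6.34 and 6.47 on the non-acupoint arrays. Both acupoint arrays were higher for 4 of them and lower for 1, against 15.2% and 13.1% of all genes, and the median of 0.52 became -0.06 without acupoint replicate 1. Of 29 skeletal muscle genes, 5 had both acupoint arrays higher, a share near the 15.2% of all genes, and 0 had both lower. Their mean was 6.41 and 5.42 after acupoint needling, 5.36 and 5.62 after hip needling, and 6.74 and 7.92 on the controls. The calcium-store protein Casq1 was at 6.15 and 5.56 against 5.28 and 5.30 (0.56, SE 0.23), and titin, Ttn, was at 6.34 and 4.91 against 4.77 and 5.03. Without acupoint replicate 1 Casq1 was at 0.27 and Ttn at 0.015. The muscle median of 0.36 became -0.06 without acupoint replicate 1. Of 21 meningeal and fibroblast genes, 0 had both acupoint arrays higher and 1 had both lower, and that median went from 0.14 to -0.35. The part of these tissues in the differences of other genes was not tested.

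**Figure D4:**
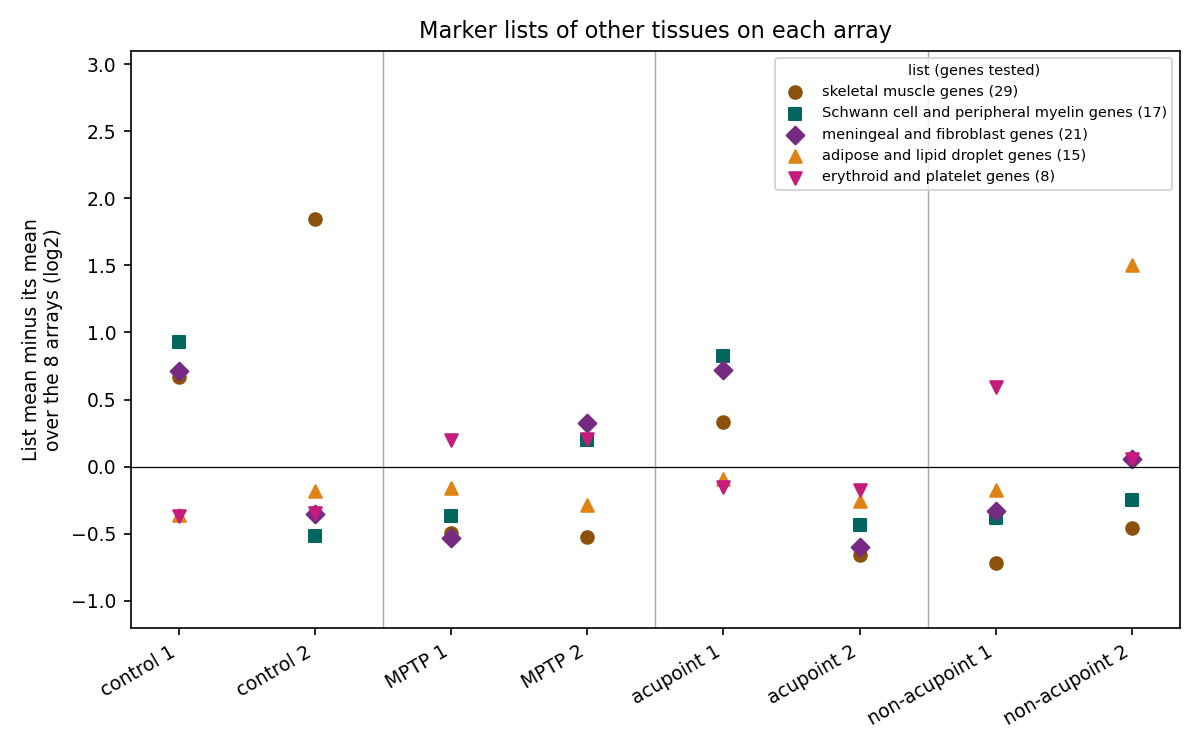
The vertical axis is the mean log2 signal of each marker list on an array minus the list's mean over the 8 arrays, for the arrays on the horizontal axis. Non-acupoint replicate 2 is alone in adipose genes, acupoint replicate 1 is higher than the other needled arrays in muscle, Schwann cell and meningeal genes, and non-acupoint replicate 1 is highest in blood genes.

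Glucocorticoid-responsive genes were mostly lower after acupoint needling. Of 23 tested, 10 had both acupoint arrays lower and 2 had both higher, against 13.1% and 15.2% of all genes, and the list median was -0.21. Fkbp5, the cochaperone that restrains the glucocorticoid receptor and is induced by it, was at 7.57 and 8.02 after acupoint needling and at 8.35 and 8.66 after hip needling. The MPTP arrays were at 8.02 and 7.96 and the controls at 7.20 and 7.10. Both non-acupoint arrays thus exceeded the MPTP arrays, and acupoint replicate 2 lay beside them. The difference was -0.71 (SE 0.15, limma adjusted p = 0.936). The metallothionein genes Mt2 and Mt1, which bind zinc, were at -0.40 (SE 0.11) and -0.24 (SE 0.08), and Mt2 was at -0.19 without acupoint replicate 1. Tsc22d3, which encodes the glucocorticoid-induced leucine zipper GILZ, was at 7.87 and 8.35 against 8.29 and 8.34, so its arrays overlapped, at -0.21 (SE 0.14). It was at 0.04 without acupoint replicate 1. The receptor gene Nr3c1 was at 8.84 and 8.62 against 8.58 and 8.55 (0.16, SE 0.09), and at 0.051 without acupoint replicate 1. The 2 list members with both acupoint arrays higher were Nfkbia (0.18, SE 0.10) and Errfi1 (0.13, SE 0.09). Sgk1, described above, is on this list. Klf9 (-0.08), Per1 (-0.06), Dusp1 (0.03) and Ddit4 (0.08) also had overlapping arrays. The list shares Plin4 with the adipose list, whose genes were high on non-acupoint replicate 2 and whose part here was not tested. The median was -0.08 without that array and -0.09 without acupoint replicate 1. Among 12 genes of the SGK kinases and their regulators the median was -0.04, with 2 higher and 2 lower without overlap, and the target Ndrg2 was at -0.075 (SE 0.06).

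Clock genes, which glucocorticoids and the time of sampling both move, had a median of -0.04, and 6 of 18 had both acupoint arrays lower against 2 higher (13.1% and 15.2% of all genes). Ciart, a repressor of the clock, was at 7.27 and 7.78 against 8.02 and 7.94, a difference of -0.46 (SE 0.15), and its further probe set gave -0.55. Without acupoint replicate 1 it was at -0.21. Bhlhe41, a repressor of the same loop, was at -0.22 (SE 0.09). The period gene Per3 was at 0.13 (SE 0.12) and the output factor Hlf at 0.12 (SE 0.09). In all, 14 of the 18 clock genes were negative and 4 positive.

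Complement and microglial genes were mostly lower after acupoint needling. Of 11 complement genes tested, 6 had both acupoint arrays lower and 0 had both higher, against 13.1% and 15.2% of all genes, with a median of -0.23. C1qa, a chain of the first component that tags synapses and debris, was at 8.22 and 8.44 against 8.76 and 8.66. The MPTP arrays were at 8.33 and 8.32, between the 2 acupoint arrays and below both non-acupoint arrays, and the controls at 7.82 and 7.91. The difference was -0.38 (SE 0.10), and C1qb (-0.33, SE 0.08), C1qc (-0.27, SE 0.09) and C4b (-0.36, SE 0.12) also had no overlap. Of 23 microglia and macrophage markers, 10 had both acupoint arrays lower and 1 had both higher, against the same shares of all genes, with a median of -0.17. The lysosomal protease gene Ctss was at 9.96 and 10.2 against 10.4 on both non-acupoint arrays, and MPTP arrays were at 10.1 (difference -0.34, SE 0.08). Ly86, a partner of a Toll-like receptor relative, was at -0.34 (SE 0.08). The marker with both acupoint arrays higher was Trem2, at 0.21 (SE 0.11). Tmem119 (0.11, SE 0.11) and Cx3cr1 (-0.01, SE 0.09) had overlapping arrays. C1qa, C1qb and C1qc are on both the complement and the microglial list, so the 2 counts are not separate. The microglial list mean was 6.96 and 6.98 after acupoint needling, 7.11 and 7.07 after hip needling, and 6.95 and 6.97 on the MPTP arrays. None of these genes passed the adjusted threshold, with limma adjusted p-values of 0.936 or above. The complement median stayed between -0.17 and -0.27, and the microglial one between -0.08 and -0.25, when 1 needled array was left out.

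Cytokine genes had no common direction. Of 17 tested, 6 had both acupoint arrays higher and 3 had both lower (15.2% and 13.1% of all genes), with a median of -0.04. The lower Ccl3 is described above. Tnf, an inflammatory cytokine, was at 5.45 on both acupoint arrays against 5.03 and 4.99 on the non-acupoint arrays (0.44, SE 0.18), with 5.07 and 4.91 on the MPTP arrays. The controls were at 4.96 and 5.49, so a control array lay above both acupoint arrays. The neuronal chemokine gene Cx3cl1 was at 9.36 and 9.40 against 9.19 and 9.15 (0.22, SE 0.07), and Tgfb2 was at 0.25 (SE 0.13). Inflammatory genes thus lay on both sides.

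Genes of dorsal horn transmission were mostly higher after acupoint needling. Of 20 dorsal horn peptide genes tested, 6 had both acupoint arrays higher and 0 had both lower, against 15.2% and 13.1% of all genes, and the median was 0.13. Neuropeptide Y, Npy, marks inhibitory dorsal horn neurons, and it was at 8.49 and 8.40 on the acupoint arrays against 8.13 and 7.96. Somatostatin, Sst, made by excitatory dorsal horn neurons, was at 9.90 and 9.94 against 9.66 and 9.39. The MPTP arrays were at 8.33 and 8.17 for Npy and at 9.84 and 9.71 for Sst, so both non-acupoint arrays were below and both acupoint arrays above them. The differences were 0.40 (SE 0.10) for Npy and 0.40 (SE 0.10) for Sst, both with a limma adjusted p of 0.936, and Sst was at 0.26 without non-acupoint replicate 2. Trh, thyrotropin-releasing hormone, was at 6.07 and 6.16 against 5.83 and 5.76 (0.33, SE 0.12), and Grp, the itch peptide, had overlapping arrays at 0.32 (SE 0.18).

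Of 22 peptide receptor genes, 8 had both acupoint arrays higher and 1 had both lower, against 15.2% and 13.1% of all genes (median 0.13). The galanin receptor Galr2 was at 5.12 and 4.63 against 4.44 and 4.39 (0.46, SE 0.20). The neurotensin receptor Ntsr1 was at 0.36 (SE 0.17), the gastrin-releasing peptide receptor Grpr at 0.26 (SE 0.12) and the PACAP receptor Adcyap1r1 at 0.22 (SE 0.09). Without acupoint replicate 1 Galr2 was at 0.21, Ntsr1 at 0.18 and Adcyap1r1 at 0.12. Opioid peptides and receptors, the system most often named for acupuncture analgesia, had 4 of 8 genes with both acupoint arrays higher and 0 lower, against the same shares. Proenkephalin, Penk, was at 11.32 and 11.34 against 11.18 and 11.16 (0.17, SE 0.09). The delta receptor Oprd1 was at 0.15 (SE 0.12), the mu receptor Oprm1 at 0.14 (SE 0.12) and the nociceptin receptor Oprl1 at 0.12 (SE 0.09). These opioid differences were no larger than 2 SE. Oprd1 was at 0.07 and Oprm1 at 0.05 without acupoint replicate 1, and Oprl1 at 0.06 without non-acupoint replicate 2. The peptide median was 0.03 without acupoint replicate 2 and 0.06 without non-acupoint replicate 2, and the receptor median 0.02 and 0.06.

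Of 19 dopamine, adrenergic and serotonin receptor genes, 10 had both acupoint arrays higher and 1 had both lower, against 15.2% and 13.1% of all genes (median 0.12). These receptors receive fibres that descend from the brain to the cord. The serotonin receptor Htr1d was at 5.75 and 5.72 against 5.39 and 5.37 (0.36, SE 0.12), and Htr2c at 10.17 and 9.94 against 9.75 and 9.81 (0.28, SE 0.09, and 0.17 without acupoint replicate 1). The dopamine receptor Drd2 was at 7.53 and 7.54 against 7.26 and 7.34 (0.23, SE 0.09), and the adrenergic receptor Adra2c at 0.25 (SE 0.11). No arrays of these 4 genes overlapped. The enzymes and transporters of monoamines, by contrast, were split, with 3 of 13 higher and 3 lower without overlap, against the same shares. The vesicular transporter Slc18a2 was at 0.31 (SE 0.16), tyrosine hydroxylase, Th, at 0.29 (SE 0.22), the decarboxylase Ddc at -0.20 (SE 0.14) and Pts, which makes the cofactor tetrahydrobiopterin, at -0.34 (SE 0.15). Slc18a2 was at 0.16 and Pts at -0.13 without acupoint replicate 1, and Ddc at 0.01 without non-acupoint replicate 1.

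Ion channels and inhibitory transmission had small differences of mostly 1 sign. Of 26 potassium channel genes, 12 had both acupoint arrays higher and 1 had both lower, against 15.2% and 13.1% of all genes, with a median of 0.09. Kcnc2, a fast-spiking channel, was at 8.62 and 8.51 against 8.34 and 8.29 (0.25, SE 0.10). Against the same shares, 9 of 23 sodium and calcium channel genes were higher and 2 lower (median 0.09), with the presynaptic calcium channel Cacna1b at 0.24 (SE 0.10). Of 22 GABA and glycine genes 9 were higher and 1 lower (median 0.07). The GABA-making enzyme Gad2 was at 9.48 and 9.58 against 9.34 and 9.28 (0.22, SE 0.09), and the receptor Gabbr1 at 0.22 (SE 0.08). By the same measure the general neuronal markers gave 4 of 15 higher and 0 lower with a median of -0.01, and motor neuron genes 2 of 20 higher and 4 lower (median -0.08). None of these genes passed the adjusted threshold. Cacna1b was at 0.15 and Gabbr1 at 0.13 without acupoint replicate 1. Some sodium and calcium channel genes with overlapping arrays were high on acupoint replicate 1 alone. Cacna1a was at 8.33 and 7.95 against 7.96 and 7.95, and Scn8a at 10.01 and 9.62 against 9.69 and 9.82. Scn3b, in contrast, was highest on acupoint replicate 2, at 7.65 and 7.94 against 7.59 and 7.40. The medians of these lists without 1 array are not given here.

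Immediate early genes, which neurons switch on within minutes of activity, included 10 of 32 with both acupoint arrays higher and 4 with both lower, against 15.2% and 13.1% of all genes (median 0.10). Fos was at 6.67 and 6.66 against 6.24 and 6.32, with MPTP arrays at 6.56 and 6.46 and controls at 6.29 and 6.01. Its arrays did not overlap, and the difference was 0.39 (SE 0.13). Fosl2 was at 0.36 (SE 0.14), Egr1 at 0.27 (SE 0.12) and Fosb at 0.26 (SE 0.13). Without acupoint replicate 1 Fosl2 was at 0.21, Egr1 at 0.17, Fosb at 0.16 and the median at 0.03. Nerve injury and regeneration genes were split, with 5 of 25 higher and 4 lower without overlap, near the shares of all genes (median 0.01). Npy is on that list as well, Jun was at 0.16 (SE 0.09), the small heat shock gene Hspb1 at -0.31 (SE 0.12) and the tubulin Tubb6 at -0.29 (SE 0.15). Hspb1 was at -0.14 without non-acupoint replicate 2 and Tubb6 at -0.11 without non-acupoint replicate 1.

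**Figure D5:**
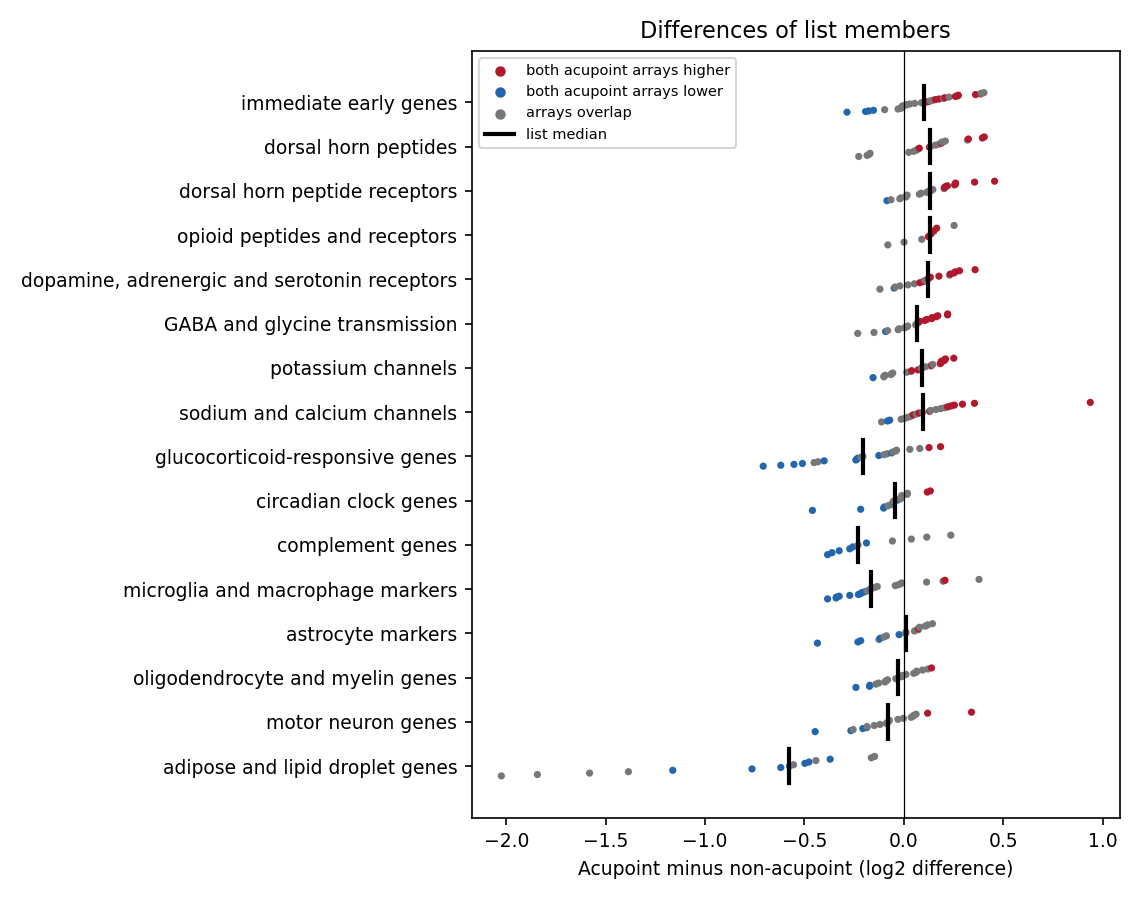
Each point is a gene of a list, with its acupoint minus non-acupoint log2 difference on the horizontal axis, and black bars are list medians. Red points have both acupoint arrays higher and blue points both lower. Peptide, receptor and channel lists have medians of 0.07 to 0.13, and glucocorticoid, complement, microglial and adipose lists have medians of -0.17 to -0.58.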

How the data were processed

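RNA of 8 samples, 2 in each of 4 groups named by the labels, was hybridised to whole-transcript Affymetrix arrays from 300 ng of total RNA, per the labels' protocols. The deposited table holds the authors' log2 values, 1 for each probe set on each array, made with Affymetrix Expression Console and RMA per the submitters' processing notes, with versions and chip library not given in the sources used here. RMA equalises probe signals across arrays and understates differences of dim probe sets, and the number of arrays limits the precision.

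Of 35557 probe sets, 21789 had 1 symbol in the platform annotation, 1621 several and 12147 none. Entrez identifiers of 15971 of the 16026 tested genes were found in a RefSeq table of GRCm38.p6. Probe sets with a mean over the 8 arrays above the 30th percentile (4.30) were kept, and the one with the highest mean stood for a gene. A limma 3.58.1 model in R 4.3.3 took all 8 arrays, with 1 mean for each group (lmFit, eBayes with a trend), with 4 residual and 5.34 prior degrees of freedom. P-values are two-sided, with Benjamini-Hochberg adjustment over all genes tested. On simulated data of 16026 genes with 200 changed, acupoint minus non-acupoint recovered 37.3% of genes changed 1.41-fold, 95.5% at 2-fold and 100% at 4-fold, with 10 false among 165 calls. The simulated noise was normal and independent for each gene and array. It held no shifts shared by many genes of 1 array, so these shares are not the sensitivity reached on the real arrays.

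Genes named were the 12 largest differences in each direction among genes without overlap between arrays at an unadjusted p under 0.01, the 8 largest in each direction with overlap, the 5 widest gaps, the SGK kinases, and up to 4 members of each list described with the smallest p. Small RNAs, predicted genes and receptors of the olfactory and vomeronasal families entered the counts without being named. Stxbp3, the Hox genes beyond this rule and some other list members, such as Pf4 and Trem2, were named after their values were seen. They are not among the 119 named genes counted below. The gene lists and the comparison were chosen with earlier results of these data known. The alternatives were 3 other normalizations, 2 filters, 3 kinds of moderation, fewer arrays in the fit, array weights, other uses of multiple probe sets, the replicate block, a muscle covariate and each array left out. A crossed pairing and the fit without 2 arrays together were added after seeing the data. Figures used matplotlib 3.10.9 (Python 3.11.15).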

Additional observations from a re-analysis of the deposited data

Results flagged for a closer look

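For 28 of the 119 named genes both acupoint arrays lay on one side of both MPTP arrays and both non-acupoint arrays on the other side. Of all 16026 genes tested 413 did so (2.58%), 242 with the acupoint arrays above (1.51%) and 171 with them below (1.07%). The named genes were chosen by the size of the acupoint minus non-acupoint difference, so their count is not to be read against that share. Both needled groups are set here against the same 2 MPTP arrays. The difference between the effects of the 2 kinds of needling was not tested beyond the limma contrast, in which none of these genes was called.

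The acupoint arrays were above and the non-acupoint arrays below the MPTP arrays for Hoxc10 (log2 difference 1.60), Usp17ld (1.18), Hoxa10 (0.79), Set (0.59), Ints2 (0.57), Fam216b (0.57), Dusp4 (0.56), Casq1 (0.56), Chst7 (0.53), Snx31 (0.52) and Cacng5 (0.43). The same order held for the peptides Npy (0.40), Sst (0.40) and Penk (0.17), the receptors Htr1d (0.36), Htr2c (0.28), Grpr (0.26) and Drd2 (0.23), the immediate early genes Fos (0.39) and Fosb (0.26), and Kcnc2 (0.25), Gad2 (0.22) and Cx3cl1 (0.22). The acupoint arrays were below and the non-acupoint arrays above for Sgk3 (-1.43), Hoxc8 (-0.77), Dio2 (-0.72), Pnpla2 (-0.58) and C1qb (-0.33). Groups of 2 arrays are too small for a check of single outlying samples.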

How the results depend on the processing

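No gene was called in any of the alternatives that kept all 8 arrays, in the fits to 4 or 6 arrays, or without 1 control, 1 MPTP array or acupoint replicate 1, and the count of called genes ranged from 0 to 622 when arrays were left out. The 622 came without acupoint replicate 2, and the fit without acupoint replicate 1 and non-acupoint replicate 2 together, added after seeing the data, called 1 gene, Hoxc10. The 604 genes at an unadjusted p of 0.05 became 300 in the fit to only the 4 needled arrays (134 higher and 166 lower) and 401 with array weights (117 and 284), and ranged from 255 to 3869 when arrays were left out, with 357 and 358 without MPTP replicates 1 and 2, 358 and 396 without non-acupoint replicates 1 and 2, and 403 without acupoint replicate 1. The cause was not tested. The balance of these genes, 283 higher and 321 lower, was 171 and 267 with arrays centred, and it turned to more higher genes without a trend (342 and 262), without moderation (352 and 231), with the muscle covariate (329 and 232) and with no filter (425 and 366).

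Of the 24 named genes without overlap, 0 turned sign in 25 alternatives and 11 passed the adjusted threshold in at least 1, each of them a fit without a needled array. Of the 119 named genes, 21 turned sign in some alternative, and 78 came out more than 1.5 times smaller without 1 of the needled arrays. When arrays were left out, the log2 differences ranged as follows among the genes high on acupoint replicate 1: Mfap5 -0.40 to 3.18, Cldn19 -0.16 to 2.88, Fam178b -0.018 to 2.30, Pmp2 -0.52 to 2.60, Atp2a1 -0.19 to 2.18, Col1a1 -0.17 to 2.04, Col1a2 -0.19 to 1.58, Col3a1 -0.35 to 1.01, Arhgap19 -0.14 to 1.97 and L1cam -0.013 to 0.43. Among those high on non-acupoint replicate 2 they were Fabp4 -4.40 to 0.35, Ucp1 -3.72 to 0.037, Cd36 -3.83 to 0.23, Cyp2e1 -3.59 to 0.28, Car3 -3.64 to 0.48 and Ces1d -2.64 to 0.13. The others were Sgk1 -0.13 to 0.13, Sgk2 -0.29 to 0.071, Tsc22d3 -0.45 to 0.0596, Bpgm -0.37 to 0.082 and Ddc -0.41 to 0.012. With the muscle mean as a covariate Sgk1 was at 0.011 and Sgk2 at 0.021.

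The replicate block (replicate numbers as pairs) called 0 genes, with 544 at an unadjusted p of 0.05. Replicate differences of the 2 needled groups correlated at -0.33 across genes. Genes of other tissues that stood apart on single arrays enter this value, so it cannot tell whether the numbers pair the samples. The crossed pairing, added after seeing the data, called 0 genes, with 641 at an unadjusted p of 0.05. The arrays differ in muscle, nerve, fat and blood genes within groups.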

Other observations

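Small nucleolar RNAs, which guide the modification of ribosomal RNA, lay mostly on the higher side after acupoint needling. Of 36 tested, 12 had both acupoint arrays higher and 0 had both lower (33.3% and 0% against 15.2% and 13.1% of all genes), with a median log2 difference of 0.19. Their mean was 6.10 and 5.93 on the acupoint arrays, 5.84 and 5.77 on the non-acupoint arrays, 5.88 and 5.91 on the MPTP arrays and 6.61 and 6.85 on the controls. Of 117 microRNA genes, 21 had both acupoint arrays higher (17.9%) and 3 had both lower (2.56%), with a mean of 5.70 on acupoint replicate 1 and 5.40 to 5.52 on the other needled arrays. No single RNA of either class is named, and none was called.

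Genes of energy and protein synthesis lay mostly on the lower side by small amounts. Of 35 subunit genes of mitochondrial complex I, 8 had both acupoint arrays lower and 0 had both higher, against 13.1% and 15.2% of all genes, with a median of -0.09, and their mean was 9.34 on acupoint replicate 1 and 9.54 to 9.59 on the other needled arrays. Of 36 cytosolic ribosomal protein genes, 9 were lower and 2 higher without overlap, against the same shares, with a median of -0.07. Of 21 antioxidant genes, 6 were lower and 1 higher by the same measure (median -0.09). Some members were low on acupoint replicate 1 alone, such as Gsr at 8.03 and 8.45 against 8.46 and 8.41. Gpx1 was low on both acupoint arrays, at 8.72 and 9.00 against 9.31 and 9.20. Neurotrophic factors and their receptors leaned to the higher side, with 8 of 25 higher and 2 lower, against 15.2% and 13.1% of all genes (median 0.12). Here too some members were high on acupoint replicate 1 alone, such as Igf1 at 6.79 and 5.95 against 5.96 and 6.13. Bdnf was higher on both acupoint arrays, at 5.83 and 5.93 against 5.64 and 5.71. The medians of the antioxidant and neurotrophic lists without 1 array are not given here.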
